A study of Mus musculus with 6 samples.

Results

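The early growth response genes Egr1, Egr2, Egr3 and Egr4 and the corepressor genes Nab1 and Nab2 were measured in activated CD4 T cells with and without vasoactive intestinal peptide (VIP). Their probes were taken by gene name from all probes of the array that were not controls, which gave 8 of 41174 probes and 6 of 27975 named genes. Egr3 and Nab1 had 2 probes each, and the Egr2 probe was printed as 10 spots on every array.

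C57BL/6J mice gave the splenic CD4 T cells, which had been activated with PMA and ionomycin, with VIP in one RNA and no VIP in the other RNA of each array. PMA is a phorbol ester that activates protein kinase C and ionomycin is a calcium ionophore, and both groups received them, so that no resting cells were compared. Per the labels, male and female mice of 6 to 32 weeks were used, 5 to 10 spleens were pooled per sample, and an anti-CD4 bead column selected the cells. The 6 arrays, called biological replicates in the labels, carried VIP in Cy5 on 3 arrays (replicates 1, 3 and 5) and in Cy3 on 3 (replicates 2, 4 and 6). Neither dose nor duration of VIP was given in the labels used here.

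The EGR proteins are zinc finger transcription factors that bind GC-rich sites and are made within a short time of T cell receptor stimulation. In T cells their transcription follows the ERK kinases, which act through ELK factors and the serum response factor SRF at CArG boxes, and the calcium pathway of NFAT. EGR1 is mainly an activator, whereas EGR2 and EGR3 are known for restraining activated T cells and for their part in anergy. NAB1 and NAB2 bind an inhibitory domain of EGR1, EGR2 and EGR3, which EGR4 lacks, and recruit the NuRD chromatin remodelling complex. VIP acts on receptors that raise cAMP, and cAMP response elements contain the letters TGACG.

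The promoters of Egr2 and Nab1 are shown because a probe of each passed the test over all probes, in opposite directions, and that of Egr4 because its ratio had the widest interval of the 8 probes. Each run holds the 250 bases before a RefSeq transcription start (GRCm38.p6). Capitals mark TGACG or its reverse complement, the EGR site GCGTGGGCG or its reverse complement, and the CArG box.
Egr2, chr10:67537619-67537868, plus strand: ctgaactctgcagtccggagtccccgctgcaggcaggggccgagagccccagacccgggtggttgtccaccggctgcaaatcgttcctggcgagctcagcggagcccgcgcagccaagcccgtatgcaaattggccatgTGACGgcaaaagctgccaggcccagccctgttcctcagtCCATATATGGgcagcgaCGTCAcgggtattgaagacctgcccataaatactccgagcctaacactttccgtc
Egr4, chr6:85513590-85513839, minus strand: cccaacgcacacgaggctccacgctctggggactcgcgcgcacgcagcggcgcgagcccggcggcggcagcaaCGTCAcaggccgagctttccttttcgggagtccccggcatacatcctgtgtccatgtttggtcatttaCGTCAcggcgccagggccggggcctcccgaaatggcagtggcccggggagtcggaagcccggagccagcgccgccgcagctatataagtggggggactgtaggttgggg
Nab1, chr1:52500449-52500698, minus strand: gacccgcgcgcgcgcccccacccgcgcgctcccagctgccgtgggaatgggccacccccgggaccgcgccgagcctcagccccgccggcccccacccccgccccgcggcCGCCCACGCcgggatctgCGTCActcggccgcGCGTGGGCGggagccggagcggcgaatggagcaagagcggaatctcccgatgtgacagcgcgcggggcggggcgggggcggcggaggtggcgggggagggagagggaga

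In the Egr2 window TGACG began 111 bases before the start, its reverse complement 55 bases before it, and a CArG box lay between them at 72 bases. Egr2 has 5 RefSeq starts, and this is the window of the third. The window of the first start held none of the motifs, and that of the second held a CArG box and no TGACG. The Egr4 window held the reverse complement of TGACG at 177 and 109 bases and no CArG box or EGR site. The Nab1 window held the EGR site on both strands, at 141 and 109 bases, and the reverse complement of TGACG at 123 bases. None of the 4 motifs was found in the Nab2 window. Egr1 and Egr3 had no window in the promoter set used, so they were not searched. Of 32851 such windows of all genes, searched on both strands, 17.8% held TGACG, 1.55% the full palindrome TGACGTCA, which contains it, 0.536% the EGR site and 1.47% a CArG box. A match describes the letters and was not tested for binding.

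In mm9, the build of the files, the Egr2 probe lies on chromosome 10 at 67004758 to 67004817, on the plus strand. The brighter Egr3 probe (AK141603) lies on chromosome 14 at 70481979 to 70482038, on the plus strand. The Egr4 probe lies on chromosome 6 at 85461153 to 85461212, on the minus strand. The brighter Nab1 probe (AK164753) lies on chromosome 1 at 52514174 to 52514233 and the dimmer (NM_008667) at 52515132 to 52515191, and the Nab2 probe on chromosome 10 at 127097981 to 127098040, all on the minus strand. Whether they lie in exons, introns or untranslated regions was not analysed here. The starts of the Nab1 probes are 958 bases apart.

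All 8 probes were well above background in both channels of all 6 arrays, and none of their spots was flagged or saturated. By mean intensity, Egr2 stood at percentile 99.21 of all tested probes and Egr1 at 98.08, so that both were among the brightest. Nab2 stood at percentile 92.01, the brighter Nab1 probe at 89.48, Egr4 at 88.4 and the brighter Egr3 probe at 87.73. The dimmer probes of Nab1 and Egr3 stood at 77.44 and 45.27. Probe brightness depends on the probe, so these percentiles do not rank the transcripts.

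The share of spots well above background was 56.9% to 99.9% per channel, and 0.574% to 4.44% of spots were flagged as outliers, except on replicate 5 with 13.5%. On replicate 5 the transcripts of Ddx3y and Eif2s3y, from the Y chromosome, had log2 ratios of 4.08 and 4.18, and Xist, from the inactive X chromosome, had -3.29. On the other arrays these 3 transcripts lay between -0.336 and 0.464, so the 2 RNAs of replicate 5 differed in a way that the others did not. Results are therefore also given without replicate 5.

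The comparison asked which transcripts differed early between activated cells with VIP and those without it. In the fit with the brightest probe of each gene, Egr2, Egr3, Egr1 and Nab2 had ratios below 0 and Nab1 and Egr4 had ratios above 0. None of the 6 genes passed at an adjusted p of 0.05 (limma, Benjamini-Hochberg over 22731 genes), although 5 of them had an unadjusted p under 0.05, as did 2946 of all genes tested (13%). In that fit 483 genes were called, which is 2.12% of those tested, with 364 higher (1.6%) and 119 lower (0.524%). The largest unadjusted p that was called was 0.00106, and that of Egr2 was 0.00115. In the fit with all probes 713 of 33056 were called, or 2.16%, with 535 higher (1.62%) and 178 lower (0.538%). There 2 of the 8 EGR and NAB probes were called, that of Egr2 as lower and the dimmer of Nab1 as higher. In bulk RNA, fewer cells that express a gene and less RNA per cell cannot be told apart.

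**Figure D1:**
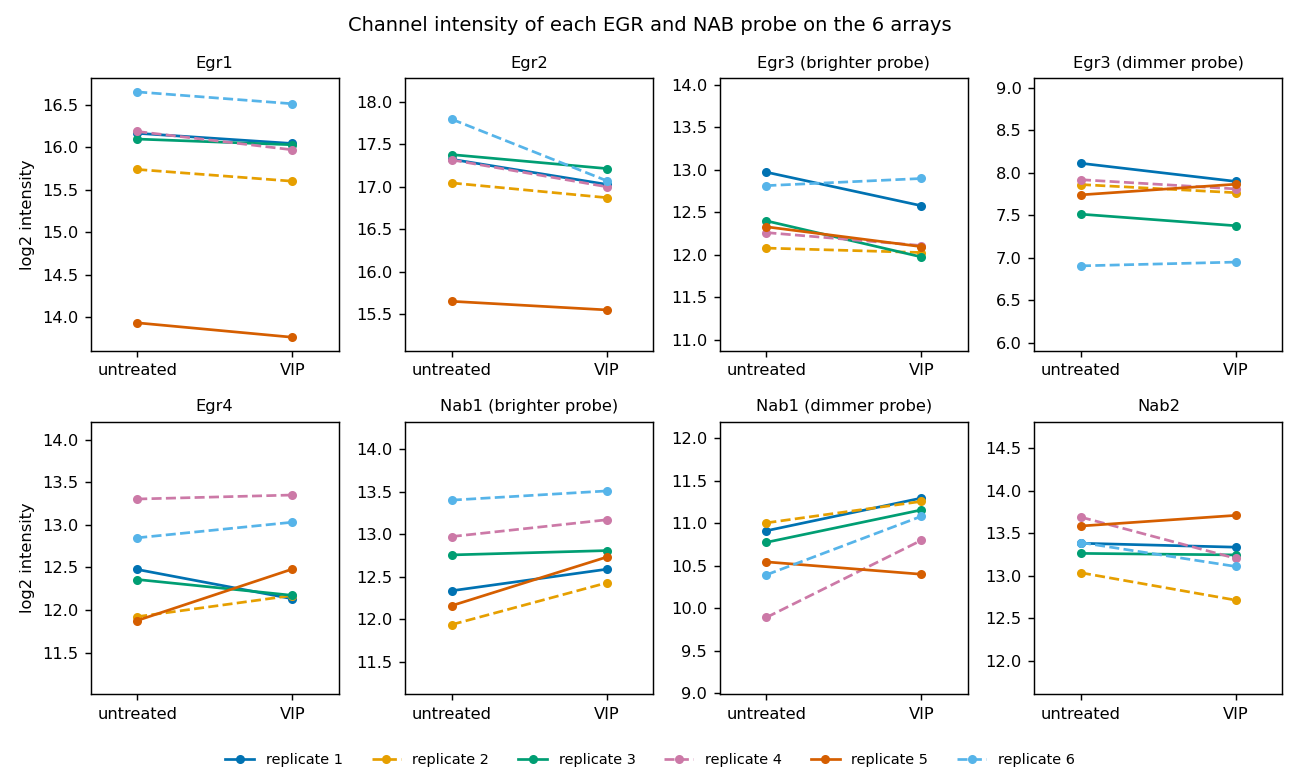
Log2 intensity of the 8 probes in the untreated and VIP channels of each array, after loess and quantile scaling of mean intensity between arrays, with every panel spanning 3.2 log2 units. Solid lines are arrays with VIP in Cy5 and dashed lines those with VIP in Cy3; Egr1 and Egr2 of replicate 5 lie below the other arrays in both channels, at 13.765 and 15.553 with VIP.

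Egr2 was the EGR gene with the smallest p. Its log2 intensity with VIP was 15.553 at the lowest, 17.014 at the median and 17.214 at the highest of 6 arrays, and without VIP it was 15.654, 17.3195 and 17.794. The channel levels overlapped, while the ratio within each array, after loess, was below 0 on all 6. The log2 ratios of VIP over untreated were -0.296, -0.1732, -0.1639, -0.3159, -0.1003 and -0.723 for replicates 1 to 6. Replicate 6 was the lowest, and the other 5 arrays lay within -0.3159 to -0.1003. The fit gave -0.30 ± 0.066 (SE, n = 6 arrays, 95% interval -0.4424 to -0.1483), or 0.815-fold. Its limma adjusted p was 0.0526 over all genes, where it did not pass, and 0.0498 over all probes, where it fell. Its call thus differed between the fits of genes and of probes. Without replicate 5 Egr2 fell, at -0.32 on the log2 scale and a limma adjusted p of 0.0246. In that fit 3.6% of genes were called. Without replicate 2 it also fell (-0.35, limma adjusted p = 0.0465), in a fit that called 1.18% of genes, and without replicate 6 the ratio was -0.22 and did not pass (limma adjusted p = 0.107).

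The 10 spots of the Egr2 probe allowed the error within an array to be set beside that between arrays. After loess, all 60 spots had ratios below 0. The SD over the 10 spots of an array lay between 0.0201 and 0.0612, whereas the SD between the 6 arrays was 0.225. On replicate 6 the spots ranged from -0.782 to -0.6915, so that its low ratio was shared by all 10 spots. Within slides, each of which held an array of either dye orientation, the ratios were -0.2346, -0.2399 and -0.4116.

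Egr1, whose probe lies on chromosome 18 at 35024395 to 35024454 (mm9, plus strand), had the smallest SD of the 8 probes over arrays. Its log2 intensity with VIP had a lowest value of 13.765, a median of 15.9975 and a highest value of 16.509, against 13.934, 16.128 and 16.648 without VIP. The ratios ran from -0.2148 to -0.06691, with a median of -0.1382, and were below 0 on all 6 arrays. The fit gave -0.14 ± 0.0394 (SE, n = 6 arrays), or 0.907-fold, and did not pass (limma adjusted p = 0.126). The dye effect was 0.0226, and within slides the ratios were -0.129, -0.1409 and -0.1536. This small and even difference did not pass without replicate 5 either, and the limma adjusted p lay between 0.172 and 0.343 when single replicates were left out.

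Egr3 showed different values for its probes. With the brighter probe the log2 intensity was 11.975 to 12.897 with VIP (median 12.1025) and 12.079 to 12.971 without it (median 12.364). Its ratios ran from -0.424 to 0.08392 and were below 0 on 5 of 6 arrays. The mean ratio was -0.3504 with VIP in Cy5 and -0.03996 with VIP in Cy3. After the dye effect of -0.155 was removed it was below 0 on 6 of 6 arrays. That effect was fitted on these same arrays, so this count adds no separate evidence. The fit gave -0.20 ± 0.0469 (SE, n = 6 arrays, 95% interval -0.2994 to -0.09094), which did not pass (limma adjusted p = 0.0718). Without replicate 5 it fell, with a log2 ratio of -0.22 (limma adjusted p = 0.0251). With no dye intercept, on all 6 arrays, the brighter probe did not pass (limma adjusted p = 0.423). The dimmer probe had a ratio of -0.06 ± 0.0516 (95% interval -0.1783 to 0.05045), with 4 of 6 arrays below 0 (limma adjusted p = 0.684 over all probes). It did not pass without replicate 5 (-0.11, limma adjusted p = 0.261).

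Egr4, which lacks the NAB-binding domain, had no single direction. Its log2 intensity was 12.132 to 13.351 with VIP (median 12.326) and 11.876 to 13.304 without it (median 12.417). The ratios were above 0 on 4 arrays and below 0 on 2, from -0.3432 on replicate 1 to 0.6037 on replicate 5. After removal of the dye effect 3 lay above 0 and 3 below it. The fit gave 0.09 ± 0.101 (SE, n = 6 arrays, 95% interval -0.1314 to 0.3161; limma adjusted p = 0.79). Without replicate 5 the estimate changed sign, to -0.05 (limma adjusted p = 0.693), so its sign rested on that array. The interval leaves room for a change of the size seen for Nab1.

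**Figure D2:**
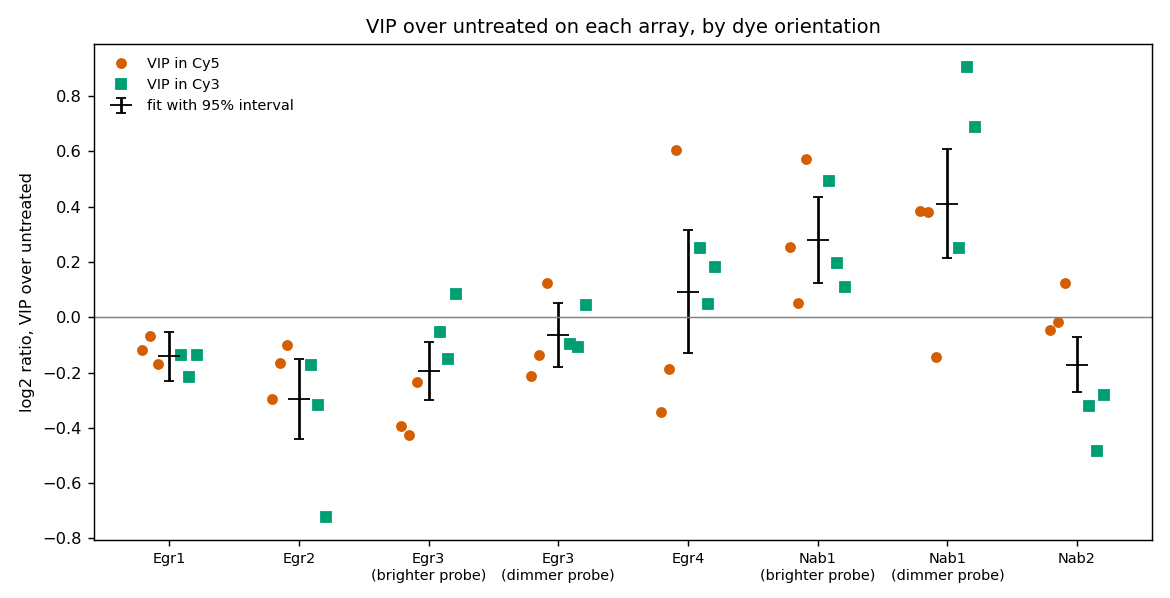
Log2 ratio of VIP over untreated of the 8 probes on each array, with circles for VIP in Cy5 and squares for VIP in Cy3, and the fitted ratio with its 95% interval in black. Egr1 and Egr2 lie below 0 on all 6 arrays and the brighter Nab1 probe above 0 on all 6, while Egr4 lies on both sides.

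The corepressors differed in direction. The brighter Nab1 probe had a log2 intensity of 12.427 to 13.507 with VIP (median 12.768) and 11.936 to 13.399 without it (median 12.5445). Its ratios were above 0 on 6 of 6 arrays, at 0.2528, 0.491, 0.05089, 0.1961, 0.5714 and 0.1082 for replicates 1 to 6. The fit gave 0.28 ± 0.0704 (SE, n = 6 arrays, 95% interval 0.122 to 0.4348), or 1.21-fold, and did not pass (limma adjusted p = 0.0879). The dimmer probe had a log2 intensity of 10.4 to 11.295 with VIP (median 11.1185) and 9.8921 to 11.004 without it (median 10.66). Its ratios were 0.3841, 0.2516, 0.3806, 0.9066, -0.1449 and 0.6885, so that only replicate 5 was below 0. It rose by 1.33-fold (log2 ratio 0.41 ± 0.0892, limma adjusted p = 0.0438 over all probes).

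The arrays ordered the Nab1 probes differently. Replicate 5 was the highest of the 6 arrays for the brighter probe and the lowest for the dimmer. Without replicate 5 the brighter probe had 0.21 and the dimmer 0.50, the latter with a limma adjusted p of 0.00263. The dimmer probe did not pass without replicate 1, 3, 4 or 6, with log2 ratios of 0.34 to 0.39 and limma adjusted p of 0.158 to 0.196. When the probes of each gene were averaged, Nab1 rose by 0.345 ± 0.0394 on the log2 scale (limma adjusted p = 0.00214). This SE was below those of the single probes, 0.0704 and 0.0892, because averaging evens out opposite deviations. After removal of the dye effect, replicates 2 and 5 were the highest for the brighter probe (0.5043 and 0.5581). They were the lowest for the dimmer (0.04711 and 0.05956). The small SE and p thus do not show that the probes agreed. In that fit 441 genes, or 1.94%, were called. Within slides the brighter probe had 0.3719, 0.1235 and 0.3398 and the dimmer 0.3178, 0.6436 and 0.2718.

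Nab2, known as an inducible partner of the EGR proteins, had a log2 intensity of 12.711 to 13.708 with VIP (median 13.2225) and 13.033 to 13.687 without it (median 13.384). Its ratios depended on the dye, with a mean of 0.02064 where VIP was in Cy5 and -0.3625 where VIP was in Cy3. The orientation coincides with the position on the slide, so a dye effect and a position effect cannot be told apart. The fit, which takes up this term as a dye effect of 0.192, gave -0.17 ± 0.0454 (SE, n = 6 arrays), or 0.888-fold, and did not pass (limma adjusted p = 0.106). After removal of the dye effect the ratio was below 0 on 6 of 6 arrays. That effect was fitted on these same arrays, so this count adds no separate evidence. Without replicate 5 Nab2 fell, with a log2 ratio of -0.20 (limma adjusted p = 0.0434). With no dye intercept, on all 6 arrays, it did not pass (limma adjusted p = 0.61).

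**Figure D3:**
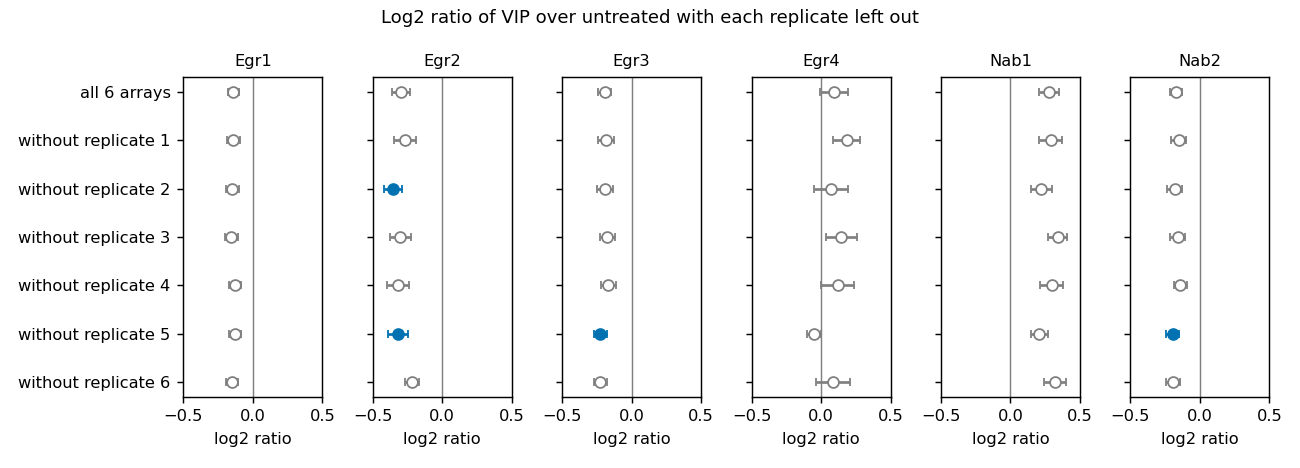
Fitted log2 ratio of VIP over untreated for the 6 genes (brightest probe) with all 6 arrays and with each replicate left out; bars are SE, and filled points passed at a limma adjusted p of 0.05. Without replicate 5, Egr2 (-0.32), Egr3 (-0.22) and Nab2 (-0.20) passed, and without replicate 2 Egr2 (-0.35) did.

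Differences between the 6 genes were compared within arrays for all 15 pairs, with a two-sided exact permutation test that flips the sign of whole arrays. Dye effects were not removed from these differences. The smallest p that 6 arrays allow is 0.03125, which 5 pairs reached. It became 0.0938 after adjustment over the 15 pairs, so no pair passed. With this lower limit a pair could pass only if most of the 15 pairs reached it. The lack of a passing pair therefore says little about the differences. Nab1 minus Nab2 was 0.449 ± 0.267 (SD, n = 6) and above 0 on 6 of 6 arrays (exact permutation p = 0.03125). Egr2 minus Nab1 was -0.574 ± 0.208 and below 0 on 6 of 6, Egr3 minus Nab1 -0.474 ± 0.269 and Egr1 minus Nab1 -0.42 ± 0.232, each below 0 on 6 of 6. Egr3 minus Egr4 was -0.288 ± 0.284. Between the EGR genes that bind NAB proteins, each difference had arrays on both sides of 0. Egr1 minus Egr2 was 0.154 ± 0.226, Egr1 minus Egr3 0.054 ± 0.224 and Egr2 minus Egr3 -0.1 ± 0.381.

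Some other settings of the fit brought more of these genes past the threshold, and others did not. With the quality of each array estimated as a weight, Egr2 (-0.29), Egr3 (-0.22) and Nab2 (-0.19) fell and Nab1 (0.26) rose, in a fit that called 3.06% of genes. With the slide as a block Egr2 (-0.30) fell and Nab1 (0.28) rose, where 1.94% of genes were called. With median centring in place of loess no EGR or NAB gene passed. Egr2 then had -0.20, Egr3 -0.13, Egr4 0.14 and Nab1 0.335, and Egr1 (-0.07) and Nab2 (-0.08) lay closest to 0.

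Other genes of the pathway were taken from 5 lists with 87 genes, of which 85 were tested; 9 rose and 1 fell, where 1.6% of all genes tested rose and 0.524% fell. Median log2 ratios can be set against that of all genes tested, which was -0.00036.

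The list of other immediate early genes held 20 tested genes, of which 5 rose, 0 fell and 15 missed the threshold, with a median log2 ratio of 0.0895. Fos, a subunit of AP-1, rose by 0.71 ± 0.057 on the log2 scale (limma adjusted p = 0.000279). Fosb, its relative, rose by 0.39 ± 0.049 (limma adjusted p = 0.00252). The orphan nuclear receptor gene Nr4a3 rose with 0.44 ± 0.059. Dusp1, a phosphatase of MAP kinases, rose with 0.41 ± 0.07, with a value on 3 arrays only. The nuclear receptor gene Nr4a1 rose with 0.19 ± 0.039 (limma adjusted p = 0.0362), with a dye effect of 0.862 and a saturated spot on 1 array. These 5 genes passed above 0. Of all 20 tested genes of the list, 14 had ratios above 0 and 6 below it, down to -0.144. Egr1, Egr2 and Egr3, also immediate early genes, had ratios below 0 and did not pass in the gene fit. The difference between the groups of genes was not tested.

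Kinases and factors of the ERK, SRF and ELK pathway, some of them below ERK, numbered 18 tested of 19, with a median of 0.00941. Mrtfa, a coactivator of SRF, rose with 0.34 ± 0.047 (limma adjusted p = 0.00445), and 17 did not pass. Mknk1, a kinase below ERK, had -0.15 ± 0.052 (limma adjusted p = 0.235).

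Of 28 genes described as EGR targets in T cells, 3 rose, 0 fell and 25 missed the threshold, with a median of -0.0126. Rgs1, a regulator of G protein signalling, rose with 0.33 ± 0.048 (limma adjusted p = 0.00541). Socs1 and Socs3, suppressors of cytokine signalling, rose with 0.30 ± 0.057 (n = 5 arrays, limma adjusted p = 0.03) and 0.20 ± 0.041 (n = 6 arrays, limma adjusted p = 0.0342). Rnf128, the anergy ubiquitin ligase GRAIL, had 0.18 ± 0.052 and missed it (limma adjusted p = 0.14).

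Other factors that bind GC-rich sites numbered 6 tested of 7, with 1 that fell, 5 that did not pass and a median of -0.13. Sp1, a widely expressed activator at GC boxes, fell with -0.20 ± 0.041 (limma adjusted p = 0.0337). Klf10, a Krüppel-like repressor, missed it with -0.24 ± 0.053 (limma adjusted p = 0.0517). None of the 13 NuRD subunits passed, and their median was -0.0347, with 5 above 0 and 8 below it. The deacetylase gene Hdac1 had 0.19 ± 0.044 (limma adjusted p = 0.0625), and Chd4, the remodelling ATPase that NAB proteins bind, had 0.12 ± 0.067 (limma adjusted p = 0.535). Mbd2 and Mbd3, of the methyl-CpG-binding domain family, had -0.13 ± 0.062 and -0.09 ± 0.038 (limma adjusted p = 0.408 and 0.371).

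**Figure D4:**
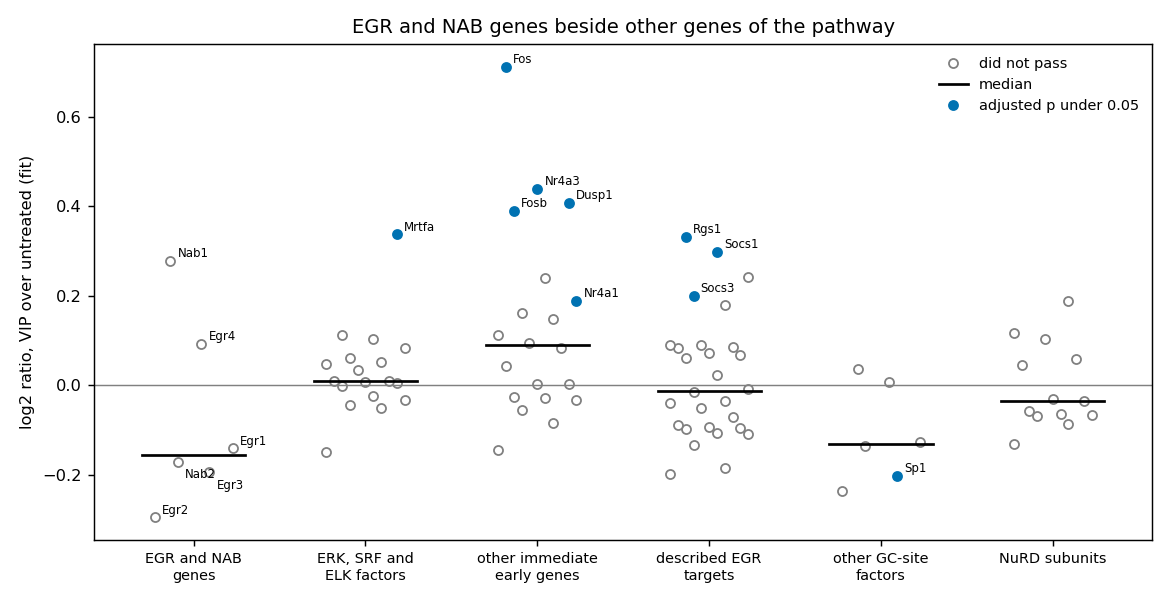
Fitted log2 ratio of VIP over untreated for the tested genes of the 5 lists and the EGR and NAB genes, with the median of each as a bar; filled points passed at a limma adjusted p of 0.05 and are named. The 5 immediate early genes that passed lie above 0, up to 0.71 for Fos, and 6 of the 20 in that list lie below 0. Egr1, Egr2, Egr3 and Nab2 also lie below 0.

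Among the 5 genes whose 6 dye-adjusted ratios were closest to those of Egr2 were Sik3, Gbe1, Efcab14 and Zfp407, with root mean square differences of 0.0604, 0.0801, 0.0892 and 0.093 over 6 arrays, among 18586 genes with a value on every array. This is a likeness of values alone. The zinc finger gene Zfp407 fell with -0.31 ± 0.065 (limma adjusted p = 0.0391). Of the EGR and NAB genes, Nab2 was closest to Egr2 at rank 512, followed by Egr1 at 574 and Egr3 at 671. Egr4 was at rank 17412 and Nab1, whose ratios had the opposite sign, at 18269.

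The cells carried the markers of their label. The log2 of the summed level of 10 CD4 T cell markers was 17.55 to 18.79 with VIP and 17.64 to 18.89 without it. Such a sum rests mostly on the brightest probes of a list. The median log2 ratio of these markers was 0.0519. Cd28 (0.28) and Cd2 (0.22) rose, and the other 8 did not pass. Of the 10 markers, 7 had ratios above 0 and 3 below it, down to -0.0754. The log2 of the summed level of 9 B cell markers was 12.9 to 13.84 with VIP and 12.81 to 13.9 without it. None of them passed. For 8 monocyte and macrophage markers the log2 of the summed level was 13.44 to 14.29 with VIP and 13.11 to 14.28 without it. Of these Cd14 rose (0.57 ± 0.069, limma adjusted p = 0.00328), while Csf1r (-0.05) and Adgre1 (0.04) did not pass. The markers of dendritic, NK, CD8 T, neutrophil and erythroid cells had median log2 ratios between -0.0471 and 0.0704, and none of those tested passed. Not every one of them was tested, and S100a8 was not. The part of other cell types in the EGR and NAB values was not tested.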

How the data were processed

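Per the file headers, Agilent Feature Extraction 9.5.1.1 produced the deposited scanner files, which give spot intensity, local background, flags and a log10 ratio of red over green. The authors' deposited series table of log10 ratios served as an alternative. It matched the scanner ratios, turned to VIP over untreated, within 1.48e-05 (log2), and its column medians were 0 on 4 arrays, -0.00198 on replicate 3 and -2.46e-05 on replicate 6. Here, signal means underwent normexp correction (offset 50) and loess normalization within arrays. Control spots (1639) and flagged spots were left out, and spots of a probe were averaged. Names came from RefSeq accessions (26788 spots), synonyms (1810) or the file (14781).

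The log2 ratio within an array was fitted in limma 3.58.1 (R 4.3.3) with an intercept for dye and a term for VIP, by lmFit and eBayes (4 residual degrees of freedom). The gene fit took the brightest probe. Probes well above background on at least 3 arrays in a channel group were tested, with Benjamini-Hochberg adjustment over all genes or all probes. Channel levels were quantile-scaled between arrays. The fit was run on simulated ratios, where the check required only effects well above those of the EGR and NAB genes to be recovered. How well it finds effects of their size is not reported here. The labels call the replicates biological; p-values reflect only how these arrays spread, and their number limits the precision.

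All 6 EGR and NAB genes were named, with at most the 4 smallest p of each pathway list and the 5 genes nearest to the EGR or NAB gene of smallest p. Nr4a1, Cd28, Cd2, Cd14, Csf1r, Adgre1 and the sex-linked transcripts were chosen after their values were seen. The genes and lists were chosen with earlier results of these data known. Alternatives changed background, normalization, dim-probe filter, flagged spots, choice of probe, dye intercept, array weights, prior, pairing, slide block and single replicates. A few single-gene and single-probe results are not reported here.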

Additional observations from a re-analysis of the deposited data

Results flagged for a closer look

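A test for a single value far from the other 5 arrays was applied to 24 sets of values of the 8 probes (ratio and both channel levels), and it marked 5. Chance marks about 1 set in 20, and the sets share arrays. The Egr1 level of replicate 5 was marked with VIP (log2 intensity 13.765, with the nearest array at 15.599) and without it (13.934, nearest 15.737). The Egr2 level of replicate 5 was marked too, with VIP (15.553, nearest 16.872) and without it (15.654, nearest 17.045). Both channels of that array were low, and its ratios (-0.1688 for Egr1 and -0.1003 for Egr2) lay within or at the edge of those of the other arrays. The size of the gap depends on the scaling between arrays. Before that scaling Egr1 with VIP was at 14.563 on replicate 5, with the nearest array at 15.366, and Egr2 at 16.461, with the nearest at 16.674. The Egr2 ratio of replicate 6 was marked at -0.723, with the nearest array at -0.3159. This ratio still held the dye effect, and its gap also depends on the processing. After removal of the dye effect replicate 6 was at -0.6143, with replicate 1 nearest at -0.4046. In the authors' log ratios replicates 6 and 1 were at -0.5537 and -0.5435. The causes were not tested.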

How the results depend on the processing

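Every gene kept its direction under the 20 alternatives tried, except Egr4 without replicate 5 (-0.0523). Egr2 passed with scaling between arrays (-0.301), with no filter on dim probes, with a filter on all 6 arrays or with a trended prior (-0.295 each), with array weights (-0.288) and with the slide as a block (-0.295). Array weights also brought Egr3 (-0.216), Nab1 (0.262) and Nab2 (-0.189) past the threshold, the slide block Nab1 (0.278), and the mean of probes Nab1 (0.345). Egr2 did not pass with no background subtraction (limma adjusted p = 0.058), flagged spots kept (0.0618) or no dye intercept (0.175). An offset of 0 (limma adjusted p = 0.246) and the authors' log ratios (0.3665) did not bring Egr2 past it either. Leaving out single replicates gave -0.353 to -0.216 for Egr2, -0.226 to -0.167 for Egr3, -0.0523 to 0.184 for Egr4 and -0.197 to -0.14 for Nab2. The number of EGR and NAB genes called was 0 with limma in the fit reported. It stayed at 0 with a normexp offset of 0, no background subtraction, median centring and the authors' log ratios. Flagged spots kept, no dye intercept and unpaired channels also gave 0. The number was 1 with scaling, no filter, the 6-array filter, the trended prior and the mean of probes. It was 2 with the slide block, 4 with array weights and 0 to 3 without single replicates. Over all genes tested, 367 were higher and 116 lower with scaling (of 22731), and 368 and 130 with no filter (of 27571). The 6-array filter gave 328 and 128 (of 12652), and the trended prior 356 and 139 (of 22731). The share called was 1.94% with the mean of probes and with the slide block and 3.06% with array weights. It was 1.18% without replicate 2 and 3.6% without replicate 5. In the fit reported 5 of the 6 genes had an unadjusted p under 0.05, as did 13% of all genes tested. Median centring moved Egr1 to -0.0685 and Nab2 to -0.0843. The number of probes called was 2 in the fit reported, where 2.16% of all probes were called. It was 0 with a normexp offset of 0, no background subtraction, median centring and the authors' log ratios. It was also 0 with flagged spots kept, no dye intercept and unpaired channels. It was 3 with the slide block, 5 with array weights and 0 to 4 without single replicates. The share over all probes in these other settings is not given here. The number of other pathway genes called, 10 in the fit reported, was 1 with an offset of 0, 3 with median centring, 0 with the authors' log ratios, 4 with no dye intercept, 0 with unpaired channels (no replicate block) and 5 with the slide block; without single replicates it lay between 5 and 11 (5 without replicate 1, 2, 3 or 4, 6 without replicate 6). Of all genes called, 75.4% were higher (364 higher, 119 lower); this was 89.2% with an offset of 0 (74 and 9), 93.3% with median centring (112 and 8) and 100% with the authors' log ratios (19 and 0). With no dye intercept 162 genes were higher and 39 lower (of 22784), and with unpaired channels 1 and 0. No background subtraction gave 356 and 108 (of 22731), and flagged spots kept 345 and 97 (of 22784). Leaving out replicate 1 gave 163 and 33 (of 22644) and replicate 3 179 and 39 (of 22363). Leaving out replicate 4 gave 232 and 37 (of 22728) and replicate 6 198 and 66 (of 22602). The causes of these shifts were not tested.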
